A study of Mus musculus with 27 samples.

Results

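The microRNA repertoire of wild-type mouse embryonic stem (ES) cells was described from the count column of the undifferentiated CJ7 line, taken alone. All 2035 mature microRNA loci listed for that column were members, which is every locus of the annotation used in the series, and no value chose them. The series holds 27 samples of CJ7 ES cells, covering small RNA, messenger RNA and chromatin, from wild-type cells and from cells without Ezh2, Eed or Jarid2, proteins of the Polycomb complex PRC2. The mutants were not contrasted with the wild type here. Wild-type CJ7 cells were kept in medium with serum and leukemia inhibitory factor (LIF), a cytokine that holds mouse ES cells undifferentiated, and the labels give no treatment and mention no feeder cells. RNA of 18 to 40 nt was cut from a gel and made into SOLiD small RNA libraries.

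The labels list 2 wild-type small RNA samples, and 1 of the 4 microRNA tables of the series names the CJ7 line and no mutant gene. No source says whether its column pools both samples or holds 1, so the column was treated as 1 value per locus with no replicate error and no test between conditions. It held 23793733 counts. Abundance is given as counts or as counts-per-million of that total (CPM), where 3 counts, the limit that a count of 0 allows, equal 0.126 CPM. Intervals are 95% exact binomial intervals and cover counting error only, because reads copied by PCR are not independent molecules. Counts were not divided by length, and whether capture during library preparation differed between sequences was not tested.

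MicroRNAs are cut from hairpin precursors by Drosha and Dicer, and either arm of the hairpin, named 5p or 3p, can be loaded into an Argonaute protein. Bases 2 to 8 of the loaded strand, the seed, pair with target messenger RNAs, so microRNAs with the same seed share many predicted targets. In mouse ES cells the miR-290 cluster is known as the most abundant source of microRNAs, and together with the miR-302 and miR-17 families it is known to promote the short G1 phase of these cells. Members of the let-7 family are known to be held low in ES cells by LIN28, which blocks their maturation.

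The mature forms that carried the repertoire are shown 5′ to 3′ as listed with the counts, with the seed in capitals. The first set is the group led by miR-294-3p, which holds members of both the miR-290 cluster and the cluster of miR-302 and miR-367 (the miR-302 cluster), and had more counts than any other seed.
miR-294-3p: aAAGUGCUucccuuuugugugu
miR-295-3p: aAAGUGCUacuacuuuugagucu
miR-291a-3p: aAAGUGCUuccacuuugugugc
miR-302d-3p: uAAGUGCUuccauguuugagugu
miR-302b-3p: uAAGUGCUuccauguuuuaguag
miR-302a-3p: uAAGUGCUuccauguuuugguga

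The next set shows the forms of the miR-290 cluster that fall in the other leading seed groups. The seed letters of miR-292-3p and miR-290a-3p differ from those above at the last base, and no other listed microRNA has the seed of miR-293-3p. The 5p forms of miR-290a, miR-293 and miR-292 share a seed with each other.
miR-292-3p: aAAGUGCCgccagguuuugagugu
miR-290a-3p: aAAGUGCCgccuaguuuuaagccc
miR-293-3p: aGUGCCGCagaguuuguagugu
miR-290a-5p: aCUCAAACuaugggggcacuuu
miR-293-5p: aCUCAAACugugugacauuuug
miR-292-5p: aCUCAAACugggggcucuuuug

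The miR-17-92 cluster and its relatives supplied 3 seed groups, led by miR-17-5p, miR-19b-3p and miR-92a-3p. These are shown with the members that set the contrasts described further on. Counted from the 5′ end, miR-19a-3p differs from miR-19b-3p by C11U alone, and miR-106a-5p differs from miR-17-5p by U10A alone.
miR-17-5p: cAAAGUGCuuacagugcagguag
miR-106a-5p: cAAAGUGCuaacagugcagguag
miR-20b-5p: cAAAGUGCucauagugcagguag
miR-93-5p: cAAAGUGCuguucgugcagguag
miR-19b-3p: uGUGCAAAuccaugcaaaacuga
miR-19a-3p: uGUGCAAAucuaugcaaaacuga
miR-92a-3p: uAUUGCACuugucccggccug
miR-25-3p: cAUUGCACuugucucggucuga

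The last set holds the leading forms outside these clusters. miR-107-3p differs from miR-103-3p by G22C alone, so reads of these 2 microRNAs that end early cannot be told apart.
miR-103-3p: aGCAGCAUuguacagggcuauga
miR-107-3p: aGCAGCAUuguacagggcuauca
miR-130a-3p: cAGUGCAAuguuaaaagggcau
miR-34a-5p: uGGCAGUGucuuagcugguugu
miR-182-5p: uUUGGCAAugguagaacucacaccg
miR-30c-5p: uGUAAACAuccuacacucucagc

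A few microRNAs made up most of the pool. miR-294-3p, at chr7:3220692-3220713 (mm9, plus strand), was the most abundant with 3636291 counts or 152826 CPM, 15.3% of all microRNA counts (interval 15.27 to 15.30). miR-293-3p of the same cluster followed with 3210543 counts (13.5%), and the ratio of the first to the second was 1.13. Both are members of the miR-290 cluster, which is known for its expression in ES cells and early embryos. miR-19b-3p, a member of the miR-17-92 cluster, had 1481580 counts at its locus on chromosome X and 1480800 at its locus on chromosome 14. Among the 19 neighbouring pairs of the 20 most abundant loci, the intervals overlapped in 2, the miR-19b-3p loci and the miR-103-3p loci. Both pairs list 1 mature form at 2 loci. So do the miR-92a-3p and miR-30c-5p pairs, whose intervals did not overlap. The intervals therefore cannot order the loci of 1 form.

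miR-290a-5p came at rank 5 with 1038791 counts and was the most abundant 5p form. It was followed by miR-292-3p (636924 counts), miR-92a-3p (589406 and 583065 counts at its 2 loci), miR-17-5p (436960), miR-103-3p (421642 and 420999) and miR-295-3p (394369). The remaining loci of the top 20 were miR-130a-3p (309581 counts), miR-107-3p (282394), miR-34a-5p (266753), miR-291a-3p (243010), miR-182-5p (232305), miR-20b-5p (184394) and miR-30c-5p (172750 and 170868). The top 20 loci carried 16 mature names, of which 6 belong to the miR-290 cluster and 4 to the miR-17-92 and miR-106a-363 clusters. miR-34a, known as a direct target of p53, miR-130a, and miR-103 and miR-107, which lie in introns of pantothenate kinase genes, were the leading forms from hairpins with no close neighbour.

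**Figure D1:**
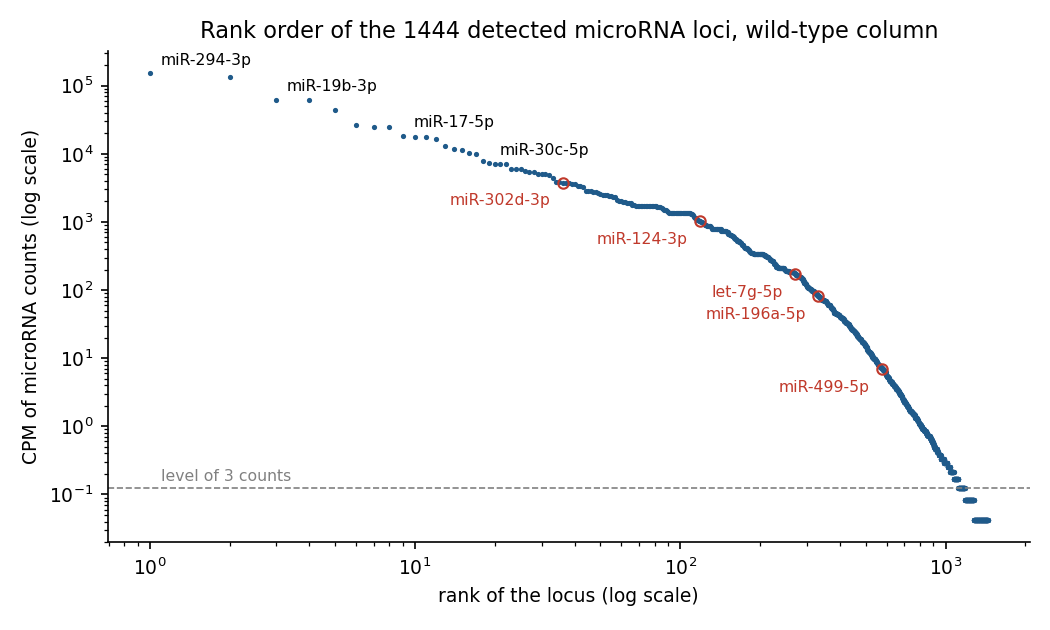
Abundance of each detected microRNA locus in CPM against its rank, both on log scales, in the wild-type column, with the level of 3 counts as a dashed line and lower-ranked examples circled. The curve falls 21.3-fold from rank 1 to rank 20 and 114-fold from rank 1 to rank 100.

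The concentration of the pool was described by shares of the total. The 5 most abundant loci held 45.6% of counts, the top 10 held 56.8%, the top 50 held 80.9% and the top 200 held 96.8%. It took 7 loci to reach 50% of counts, 104 to reach 90% and 313 to reach 99%. At the other end, 591 loci (29.0%) had 0 counts, 504 had 1 to 9 counts, and the median locus had 6 counts. At least 1 CPM was reached by 810 loci, 10 CPM by 535 loci, 100 CPM by 312 loci and 1000 CPM by 121 loci, and the last set held 92.2% of counts. The plot of abundance against rank shows where examples from other families lay, from miR-302d-3p at 3784 CPM to miR-499-5p at 7.02 CPM.

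Mature forms made from several hairpins needed care in every share. There were 77 names with more than 1 locus, and their 212 loci held 32.1% of counts. Of the 48 such names with at least 100 counts at their highest locus, 45 had values within 5% of each other at all their loci and 17 had the same value at all of them. For example, miR-124-5p was listed with 1720 counts at each of 3 loci, and miR-669a-5p was listed with 31858 counts at each of 12 loci. Whether the full count was entered at each place or reads were split evenly cannot be told apart. With 1 value per name the total fell to 19557919 counts, 17.8% less, and it took 5 names to reach 50% and 73 to reach 90%.

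Grouped by seed, the pool was narrower still. The 2035 loci carried 1521 different seeds, 1071 of them detected, and 4 seeds reached 50% of counts while 34 reached 90%. The 10 most abundant seeds held 72.1%. The group with the seed AAGUGCU held 18.6% of counts with 6 members. miR-294-3p alone supplied 82.2% of that group, miR-295-3p 8.91% and miR-291a-3p 5.49%, and the 3 members from the miR-302 cluster supplied 2.04%, 0.898% and 0.461%. miR-302c-3p (27873 counts) was outside the group, because its listed form (aAGUGCUUccauguuucagugg) begins 1 base later and its seed reads AGUGCUU.

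The seed of miR-293-3p, GUGCCGC, held 13.5% of counts with that 1 member. The miR-19 group, with the seed GUGCAAA, held 12.7%, of which the 2 miR-19b-3p loci made up nearly all and miR-19a-3p 2.27%, and it held 7.92% with 1 value per name. The miR-25/92 group (AUUGCAC) held 5.62%, with miR-25-3p at 128395 counts, miR-363-3p at 23017, miR-92b-3p at 7458, miR-32-5p at 4518 and miR-367-3p at 2110. This group drew on 7 loci on 5 chromosomes, whereas the group of miR-290a-5p, miR-293-5p and miR-292-5p, with the seed CUCAAAC and 5.32%, came from the miR-290 cluster only. With 1 value per name the order reversed, with 3.84% for the miR-25/92 group and 6.47% for the miR-290a-5p group.

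The miR-103/107 group, known for a role in metabolism and in lowering Dicer, held 4.73%, or 3.60% with 1 value per name. The miR-17 group held 3.71%, or 4.52% with 1 value per name. Its members spread over a wide range: miR-17-5p had 436960 counts, miR-20b-5p 184394, miR-106a-5p 169847, miR-106b-5p 47592, miR-20a-5p 40420 and miR-93-5p 4239. The group of miR-292-3p (seed AAGUGCC) held 3.50%, and included miR-467a-5p of the cluster in Sfmbt2, listed with 18577 counts at each of its 10 loci. The miR-30 group, known for supporting differentiation in several lineages, held 2.46%, and the miR-130 and miR-301 group held 1.98%, with miR-130a-3p supplying 65.7% of it.

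**Figure D2:**
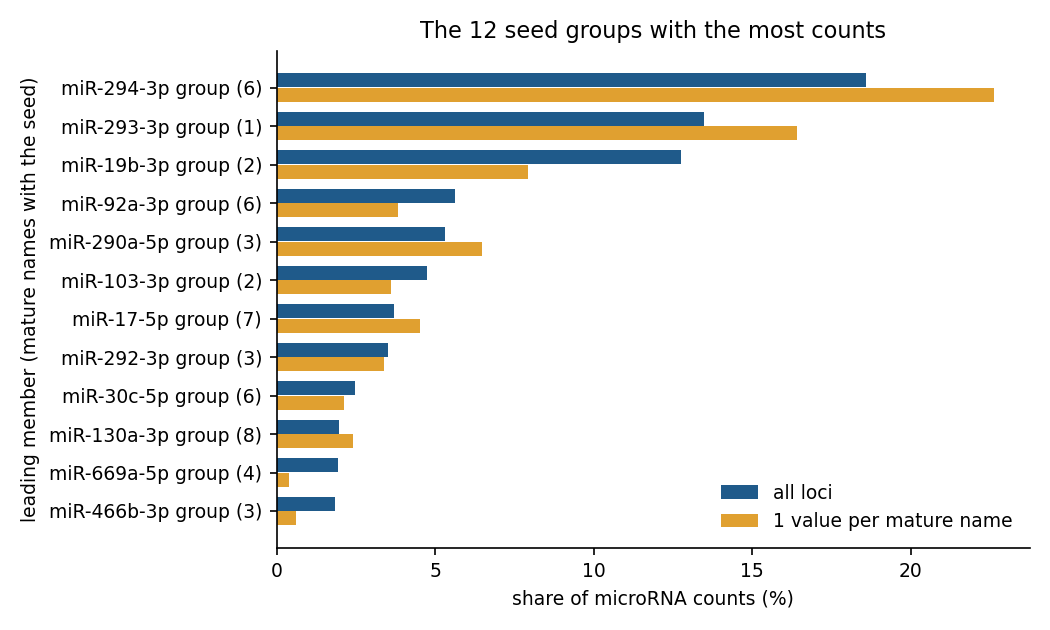
Share of microRNA counts in percent for the 12 seed groups with the most counts, each named by its leading member with the number of mature names in parentheses, from all loci (blue) and with 1 value per mature name (yellow). The miR-294-3p group has 18.6% by loci and 22.6% by name, and the miR-669a-5p group falls from 1.93% to 0.398%.

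Several of these seeds share a run of 4 letters, GUGC, at shifted positions. This run was chosen after the values were seen, so its share is a description with no test. It was searched as GUGC on the listed strand within bases 2 to 8. It was present in 94 of the 2035 loci (4.62%), which held 55.2% of counts and 10 of the 20 most abundant loci. It began at base 2 in 11 loci with 26.2% of counts, mainly miR-293-3p and miR-19b-3p, and at base 4 in 39 loci with 22.4%, mainly miR-294-3p and its relatives. Without the miR-290 cluster in either sum the share was 34.8%.

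The annotated mature forms of the pool were mostly 22 nt (54.1% of counts) or 23 nt (29.96%) long. Forms starting with A held 53.7% of counts and 26.1% of loci, and forms starting with U held 36.7% of counts and 40.9% of loci. The miR-290 cluster set this order. Outside it U held 60.9% of counts and A 23.5%. All 6 miR-290 forms among the top 20 loci start with A, as the sequences above show.

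Hairpins lying close together on a strand are usually cut from 1 primary transcript. With neighbours on the same strand joined across gaps of up to 10 kb, the loci formed 1186 hairpins, of which 336 (28.3%) lay in 82 clusters of at least 2. These clusters held 84.3% of counts, and the first 3 held 61.3%. The 850 single hairpins held the other 15.7%, led by the miR-103 hairpins, miR-130a, miR-107, miR-34a, the miR-30c hairpin of chromosome 1, miR-21a and miR-140. The numbers of hairpins and clusters are too high, because the rules split some precursors. miR-3102 was counted as 4 hairpins within 103 bp, with 0.0224% of counts. The 5p and 3p forms of miR-7060, which span 137 bp, were counted as 2 hairpins, with 7 counts. On the level of chromosomes, chromosome 7 held 41.2% of counts, chromosome 14 held 11.8%, X 10.8%, 2 9.80% and 12 5.01%.

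The miR-290 cluster at chr7:3218640-3220838 (mm9, 2199 bp from the first to the last mature end) held 39.7% of counts (interval 39.72 to 39.76). Its 7 hairpins were far from equal. In the direction of transcription, the 5p and 3p forms had 1038791 and 9447 counts in miR-290a, 42067 and 243010 in miR-291a, 85237 and 636924 in miR-292, and 6528 and 6390 in miR-291b. miR-293 had 142296 and 3210543, miR-294 had 2297 and 3636291, and miR-295 had 1659 and 394369. The hairpin with the most counts, miR-294, thus exceeded the one with the fewest, miR-291b, 282-fold, although both are placed within 2199 bp. By seed, 45.2% of the cluster's counts carried AAGUGCU, and miR-293-3p made up another 34.0%. Of the forms listed apart from these hairpins, miR-290b-3p and miR-292b-5p had 1 count each, and miR-290b-5p and miR-292b-3p had 0.

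The miR-17-92 cluster on chromosome 14, known as an oncogenic microRNA polycistron, held 11.2% of counts in 6 hairpins. miR-19b had 1484022 counts over both arms and miR-18a, the lowest, had 35927, a 41.3-fold range. Its relative on chromosome X, miR-106a-363, held 10.4%, with a range of 210-fold between miR-19b and miR-18b (7063 counts). Since miR-19b-3p and miR-92a-3p are the same molecule from either cluster, these shares cannot be assigned to 1 cluster or the other. The third relative, miR-106b-25 in the Mcm7 gene, held 0.794%, with 128691 counts for miR-25, 52618 for miR-106b and 7645 for miR-93, which lies between them.

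**Figure D3:**
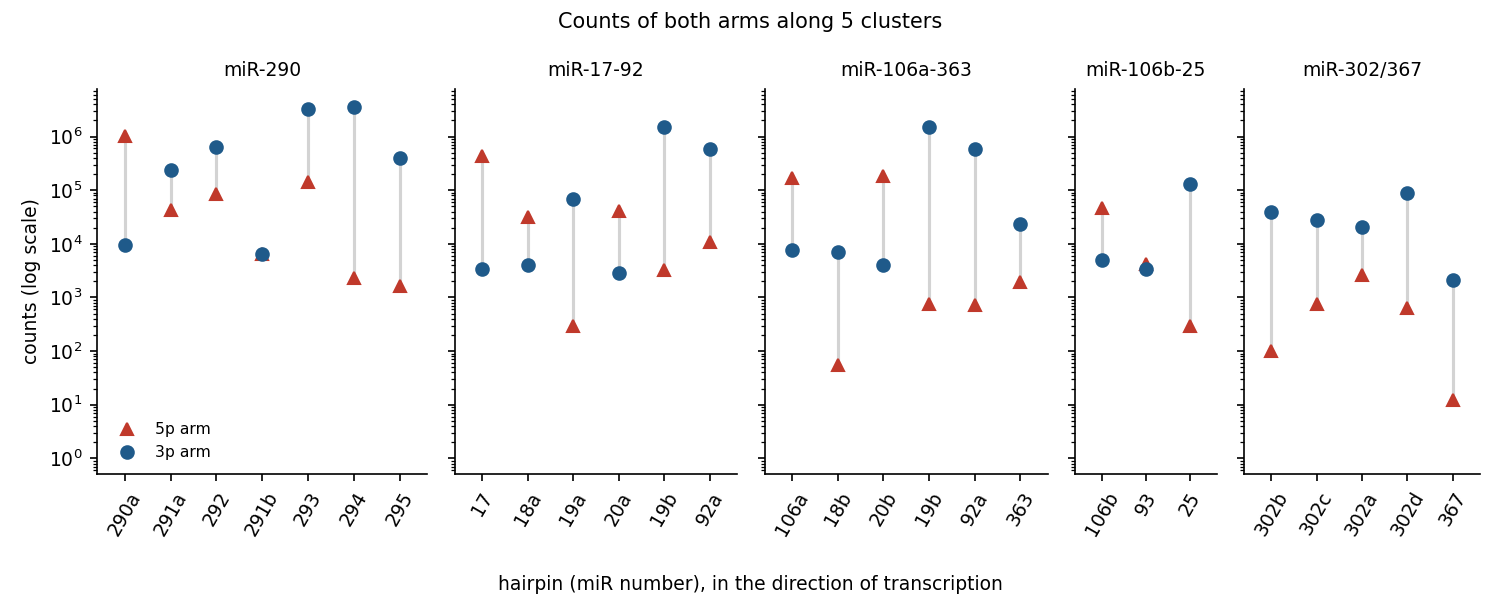
Counts of the 5p arm (triangles) and the 3p arm (circles) on a log scale for each hairpin of 5 clusters, placed in the direction of transcription, with a grey line joining the arms of a hairpin. The higher arm is 5p in miR-290a, miR-17 and miR-18a and 3p in miR-294, miR-19b and miR-18b, and the arms of miR-291b and miR-93 nearly coincide.

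The miR-302 cluster, which includes miR-367, at chr3:127248156-127248718, known as the dominant ES cell microRNA cluster in humans and as a marker of the primed, epiblast-like state in mouse, held 0.774% of counts. All 10 of its forms were detected. The 3p forms of miR-302d, miR-302b, miR-302c and miR-302a had 90031, 39748, 27873 and 20390 counts, and miR-367-3p had 2110. Together its forms had 184227 counts, beside 184394 for miR-20b-5p alone.

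A pair of imprinted regions held the largest number of hairpins. The cluster in an intron of Sfmbt2 on chromosome 2, known for expression in placenta and early embryos, had 71 hairpins with 137 loci, all detected, and 6.19% of counts by locus. With 1 value per name it held 2.35%, because its forms repeat: 40530 counts were listed at each locus of miR-466c-3p and miR-466e-3p and of most of miR-466b-3p. Some names also share 1 sequence, such as miR-466b-3p with miR-466c-3p and miR-669a-5p with miR-669p-5p. The share by name therefore still counts some forms more than once. Loci that list a repeated count are likewise not separate detections. The Gtl2-Rian-Mirg region on chromosome 12, transcribed from the maternal chromosome, appeared in pieces. The piece from miR-379 to miR-3072, with 38 hairpins, held 3.55%, and the piece from miR-770 to miR-136, with 14 hairpins, held 1.20%. Of the 112 loci of the whole region, 106 were detected and 79 reached 10 CPM. Over all 2035 loci, 71.0% were detected and 26.3% reached 10 CPM. The region was led by miR-409-3p (104289 counts), miR-665-3p (91052), miR-376b-3p (85950) and miR-154-3p (78956).

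Smaller clusters followed. The miR-183 cluster, best known from sensory cells, held 1.64% of counts, with miR-182-5p at 232305, miR-183-5p at 121751, miR-96-5p at 33962 and miR-183-3p at 1529. The miR-23a/27a/24-2 cluster held 1.20% and the miR-23b/27b/24-1 cluster 1.06%. The miR-30c/30e pair held 0.986% and the miR-15b/16-2 pair, known for restraining cyclins, 0.781%.

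Arm use was compared within hairpins, where both arms come from the same precursor. Of 849 hairpins with both arms listed, 388 had at least 100 counts over both. An arm with at least 10 times the counts of the other was named dominant. The 5p arm was dominant in 116 hairpins (29.9%), the 3p arm in 138 (35.6%) and neither in 134 (34.5%). Without hairpins that hold a name of several loci, these numbers were 82, 98 and 99. Across the 388 hairpins, the higher arm exceeded the lower by a median of 24.9-fold. The difference was at least 100-fold in 117 hairpins and less than 2-fold in 27. Over all loci, 3p forms held 72.7% of counts and 5p forms 26.9%, or 35.4% for 5p forms without the miR-290 cluster. Among the 388 hairpins, those with a dominant 3p arm held 67.2% of counts, those with a dominant 5p arm 21.8% and the others 11.03%. The hairpins nearest the limit of 10-fold were miR-300 at 10.2 and miR-671 at 9.86.

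**Figure D4:**
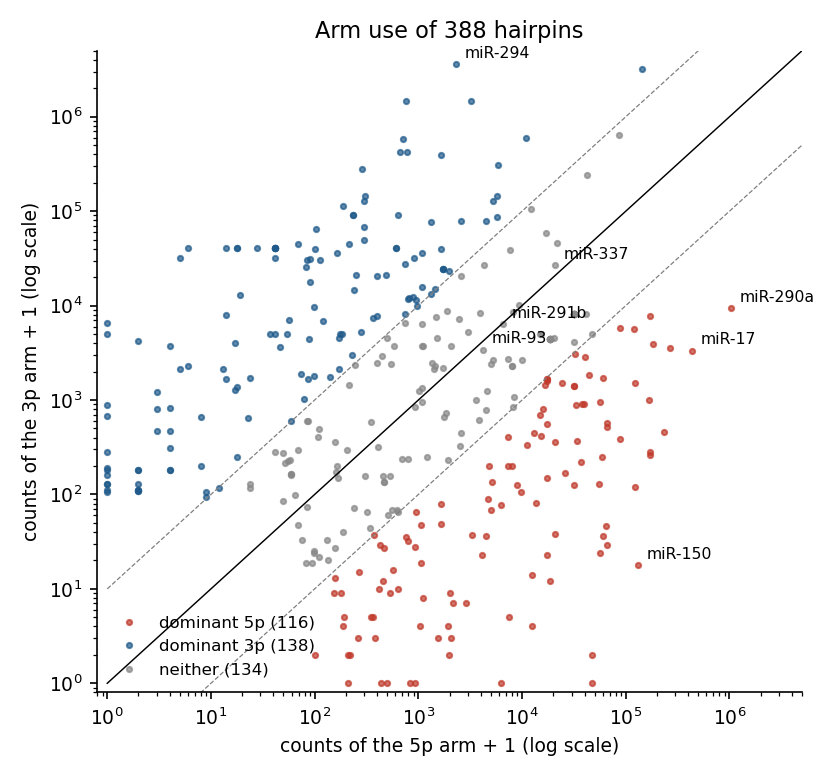
Counts of the 5p and 3p arms, each plus 1 and on log scales, for the 388 hairpins with at least 100 counts over both arms, with equal arms on the solid line and 10-fold differences on the dashed lines. Red points (116) have a dominant 5p arm, blue points (138) a dominant 3p arm and grey points (134) neither.

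Within the miR-290 cluster the preferred arm changed between neighbouring hairpins. In miR-290a the 5p arm exceeded the 3p arm 110-fold (interval 108 to 112). In miR-294 the 3p arm exceeded the 5p arm 1583-fold (interval 1520 to 1650), in miR-295 238-fold and in miR-293 22.6-fold. miR-292 and miR-291a favoured 3p by 7.47-fold and 5.78-fold, and in miR-291b the arms could not be separated at this depth, with a ratio of 1.02 (interval 0.987 to 1.06). The hairpins of miR-290a, miR-294 and miR-292 are shown from RefSeq (GRCm38.p6, all plus strand, at chr7:3218626-3218708, chr7:3220641-3220724 and chr7:3219189-3219270), with the more abundant arm in capitals, to place the preferred strand on each side of the loop.
Mir290a: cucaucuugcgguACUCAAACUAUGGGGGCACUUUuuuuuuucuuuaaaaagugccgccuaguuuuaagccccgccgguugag
Mir294: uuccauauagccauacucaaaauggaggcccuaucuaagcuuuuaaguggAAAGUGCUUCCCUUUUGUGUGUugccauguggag
Mir292: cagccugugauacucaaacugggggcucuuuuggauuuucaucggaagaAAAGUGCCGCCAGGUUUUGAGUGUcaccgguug

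All hairpins of the miR-302 cluster favoured the 3p arm, by 397-fold in miR-302b, 176-fold in miR-367, 142-fold in miR-302d, 37.3-fold in miR-302c and 7.90-fold in miR-302a. In the miR-17-92 cluster the 5p arm was higher in miR-17 (131-fold), miR-20a (14.2-fold) and miR-18a (7.79-fold), and the 3p arm in miR-19a (231-fold), miR-19b (460-fold) and miR-92a (53.9-fold). The forms miR-19b-3p and miR-92a-3p are shared with the cluster on chromosome X, so their ratios may be too high for 1 hairpin. miR-18b on chromosome X went the other way from miR-18a, with 55 counts of its 5p form and 7008 of its 3p form, a 127-fold ratio (interval 97.8 to 169). The 5p forms of miR-18a and miR-18b differ by A18U and A20U alone, so their reads that end early cannot be told apart. Whether this affected the ratio was not tested. In miR-93 the arms had 4239 and 3406 counts, a ratio of 1.24 (interval 1.19 to 1.30), whereas its neighbour miR-25 favoured 3p 434-fold. miR-106b, at 9.47-fold toward 5p, fell just short of the limit.

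Other abundant hairpins with a dominant 5p arm were miR-34a (75.2-fold), miR-182 (512-fold), miR-20b (46.6-fold) and the miR-30c hairpins (610-fold and 650-fold). Outside the clusters above, abundant hairpins with a dominant 3p arm included the miR-103 hairpins (545-fold and 633-fold), miR-130a (52.9-fold), miR-107 (994-fold) and miR-140 (24.1-fold). The forms miR-30c-5p and miR-103-3p are each shared by 2 hairpins, so their ratios may be too high for 1 hairpin. After miR-292 and miR-291a, the most abundant hairpins without a dominant arm were miR-409, miR-130b (3.48-fold toward 3p) and miR-127, followed by miR-106b, miR-181c (5.12-fold toward 5p) and miR-337. In the Sfmbt2 cluster, neither arm was dominant in 28 of 62 hairpins, beside 134 of 388 in all, but 21 of the 28 were repeats of miR-669a (11 hairpins) and miR-467a (10 hairpins) with the same counts. Of the Gtl2-Rian-Mirg region, the piece from miR-770 to miR-136 had neither arm dominant in 8 of 12 hairpins, while the piece from miR-379 to miR-3072 had a dominant 3p arm in 20 of 36 and neither in 11. miR-409 favoured 3p 8.51-fold, miR-127, which lies opposite the gene Rtl1, 2.12-fold and miR-337 1.28-fold. In miR-337 the 5p form had 20954 counts and the 3p form 26923, and in miR-127 they had 21943 and 46523. Both hairpins are shown from RefSeq (GRCm38.p6, plus strand, at chr12:109585789-109585885 and chr12:109592846-109592915) with both arms in capitals.
Mir337: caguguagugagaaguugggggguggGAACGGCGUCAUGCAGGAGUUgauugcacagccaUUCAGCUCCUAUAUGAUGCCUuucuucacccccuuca
Mir127: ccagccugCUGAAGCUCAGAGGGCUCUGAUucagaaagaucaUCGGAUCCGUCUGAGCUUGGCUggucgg

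Argonaute is known to favour strands that start with U or A. Among the 254 hairpins with a dominant arm, the dominant arm started with U in 138 (54.3%) and the other arm in 57 (22.4%), with A in 73 against 81 and with C in 21 against 74. Dominant 5p arms started with U in 72 of 116 hairpins and their partners in 16, and dominant 3p arms in 66 of 138 and their partners in 41. Of the 5 most abundant hairpins, both miR-19b hairpins have a dominant arm with U and a partner with A, while miR-294, miR-293 and miR-290a carry A at the start of both arms. These counts include hairpins that share a mature form and are a description with no test.

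Hairpins that share a mature form can be compared by their other arm where it has a name of its own. Whether counts of the other arm follow the output of its hairpin was not tested. There were 27 shared forms of 2 hairpins whose other arms have names of their own, and in 25 of them the shared form was listed within 5% at both hairpins. The other arms differed by at least 5-fold in 14 of the 27, and in 16 the interval of the ratio lay above 1. The 14 include 3 pairs whose lower arm was at 0, set at 3 counts, which have no interval. They also include miR-194, with 6 against 1 count and an interval of 0.728 to 276. The 5p form of miR-92a-1, on chromosome 14, had 10943 counts and that of miR-92a-2, on chromosome X, 709, a ratio of 15.4 (interval 14.3 to 16.7). For miR-19b the same clusters gave 3222 and 760 counts, a ratio of 4.24 (interval 3.92 to 4.59).

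Wide differences were found for miR-196a-1-3p against miR-196a-2-3p, from the HoxB and HoxC regions, with 228 and 3 counts (ratio 76.0, interval 25.7 to 371), for miR-26a-2-3p against miR-26a-1-3p, with 564 and 28 (20.1-fold), and for miR-24-2-5p against miR-24-1-5p, with 5670 and 302 (18.8-fold). miR-7a-1-3p, from an intron of the broadly expressed gene Hnrnpk, had 5811 counts and miR-7a-2-3p had 390 (14.9-fold). miR-16-2-3p exceeded miR-16-1-3p with 249 against 23 counts. let-7a-1-3p had 64 counts and let-7a-2-3p 0, at least 21.3-fold higher when the 0 is set at 3 counts. Little separated the copies of miR-30c, with 283 and 263 counts (ratio 1.08, interval 0.907 to 1.28), and of miR-103, with 773 and 665 (ratio 1.16, interval 1.047 to 1.29).

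The label was checked against microRNAs of ES cells and of differentiated lineages. The ES cell clusters miR-290 and miR-302 held 39.7% and 0.774% of counts, and the miR-17-92 cluster with its relatives 22.4%. The last share counts miR-19b-3p and miR-92a-3p at 2 loci each. With 1 value per name these shares were 48.3%, 0.942% and 16.7%. The let-7 family, a mark of differentiated cells, held 0.0469%. Of its 26 loci, 22 were detected and 9 reached 10 CPM, beside 71.0% and 26.3% of all loci. let-7g-5p led it with 4120 counts, or 173 CPM, and let-7f-5p, let-7a-5p and let-7e-5p had 1048, 946 and 933 counts at their highest loci. At 0 counts were let-7c-1-3p, let-7a-2-3p, let-7j and let-7k.

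Outside the Sfmbt2 cluster, 10 lists of lineage microRNAs covered 190 loci. Of these, 165 were detected, beside 1444 (71.0%) of all 2035 loci. A level of 10 CPM was reached by 57 (30%), beside 26.3% of all 2035 loci. Together the 190 loci held 2.98% of counts. The numbers given per list below are to be read beside the same shares of all loci. The lists differed widely, as the plot of lineage lists shows. Fewer cells of a type and less RNA per cell cannot be told apart in a bulk sample, and neither can other cells in the culture and low expression in ES cells.

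**Figure D5:**
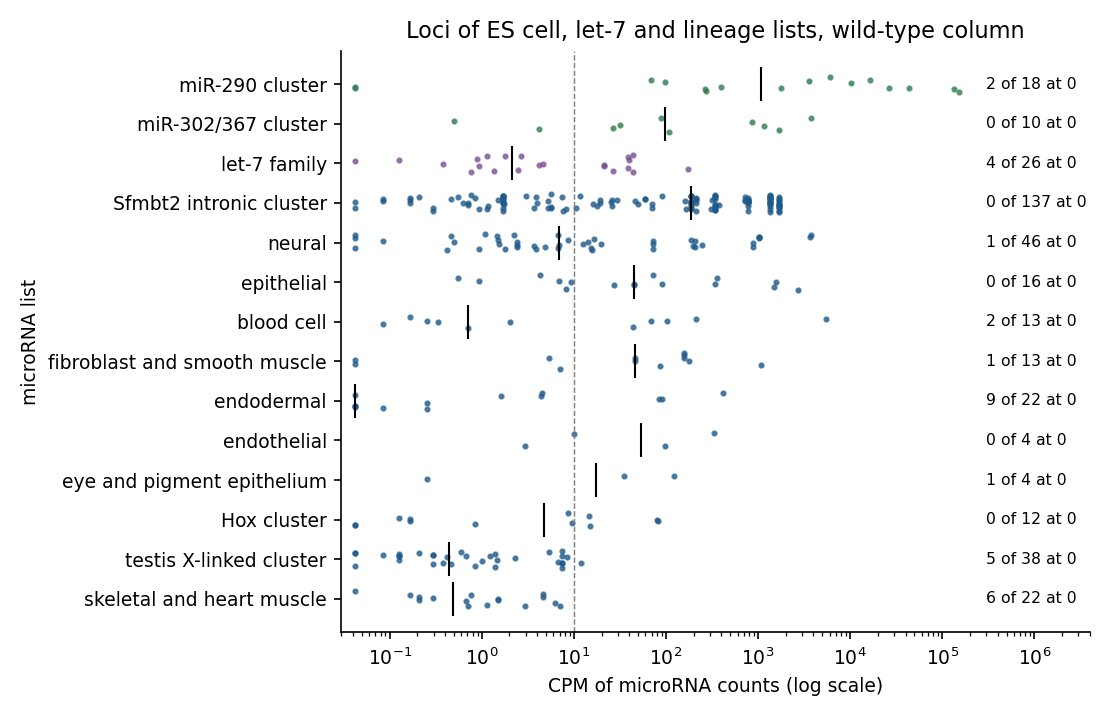
CPM on a log scale of each detected locus in 14 microRNA lists of the wild-type column, with black ticks at the median over all loci of the list where it is above 0, a dashed line at 10 CPM and the number of loci at 0 on the right. The miR-290 list reaches 152826 CPM, while no locus of the skeletal and heart muscle list reaches 10 CPM.

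Muscle microRNAs were at the bottom. The 22 loci of the skeletal and heart muscle list held 0.00327% of counts, 16 were detected and 0 reached 10 CPM. miR-499-5p, from a myosin gene, led with 167 counts, miR-499-3p had 150, and miR-1a-3p had 110 at each locus, miR-486-5p 70 and miR-206-3p 18. The testis X-linked cluster held 0.00839% over 38 loci, with 33 detected and 1 at 10 CPM, miR-880-3p with 283 counts. miR-878-3p followed with 200, and miR-465c-3p and miR-465b-3p were listed with 179 each. The Hox cluster microRNAs held 0.0211%, and all 12 were detected. miR-196a-5p had 1928 and 1923 counts at its loci, while miR-10b-5p had 361, miR-196b-5p 346 and miR-10a-5p 208.

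The neural list held 1.36% of counts, with 45 of 46 loci detected and 21 at 10 CPM or more. It led these 10 lists by locus, but with 1 value per name it held 0.783%, below the epithelial list at 0.826%. miR-7a-5p had 88505 and 88059 counts at its loci, miR-124-3p, the most abundant neuronal microRNA in adult brain, 24136 at the highest of 3, and miR-218-5p, known from motor neurons, 20762. miR-128-3p had 4956 and 4965 counts at its loci and miR-138-5p 4644 and 4493. In contrast miR-9-5p, a mark of neural progenitors, had 58 counts at each of its 3 loci and miR-137-3p had 12. The 1 neural locus at 0 was miR-128-2-5p, the less abundant arm of a miR-128 hairpin. The eye and pigment epithelium list held 0.0157%, with miR-211-5p at 2906 counts, miR-204-5p at 831, miR-211-3p at 6 and miR-204-3p at 0.

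Epithelial microRNAs held 0.679%, and all 16 were detected. miR-200a-3p (64917 counts), miR-141-3p (35843) and miR-429-3p (8016), members of the miR-200 family that represses ZEB1 and ZEB2, were well above miR-200b-3p (2176) and miR-200c-3p (197). miR-205-5p had 36984 counts and miR-31-5p 8441. miR-141 and miR-200c are cut from the same transcript, and their 3p forms lay at 35843 and 197 counts.

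The blood cell list held 0.596% of counts, and 1 member made up 92.8% of it. miR-150-5p, the microRNA of mature lymphocytes, had 131513 counts or 5527 CPM, while its 3p form had 17, a ratio of 7736 (interval 4832 to 13280). The other members were lower: miR-142-5p had 5056 counts, miR-142-3p 2423, miR-155-5p 1634 and miR-451a, the red cell microRNA that matures without Dicer, 1044. miR-144-3p, cut from the same transcript as miR-451a, had 8 counts and miR-223-3p, abundant in myeloid cells, 4, and miR-451b and miR-223-5p were at 0.

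The fibroblast and smooth muscle list held 0.191%, with 12 of 13 loci detected. miR-145a-5p had 25674 counts and its partner in the same transcript, miR-143-3p, 4255. miR-199b-3p had 3702, beside 3699 and 3700 at the miR-199a-3p loci, and whether these list the same reads was not tested. miR-214-3p, cut from the transcript of miR-199a-2, had 128, and miR-145b was at 0. The endothelial list of miR-126 forms held 0.0447%, with miR-126a-5p at 8013 counts, miR-126a-3p, the better known arm, at 2314, miR-126b-5p at 241 and miR-126b-3p at 70.

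The endodermal list held 0.0599% over 22 loci, of which 13 were detected and 3 reached 10 CPM. miR-192-5p had 9830 counts, miR-194-5p 2169 and 1982, and miR-375-3p, from pancreatic islets, 108. The liver microRNA miR-122-5p had 6 counts. The 5p and 3p forms of miR-216a, miR-216b, miR-217 and miR-802 were all at 0.

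Families found in many tissues were also present. The miR-30 family held 2.47% of counts, the miR-23/27/24 clusters 2.26%, the miR-130 and miR-301 family 2.08%, the miR-15/16 family 1.35%, the miR-34 family 1.18%, miR-26 and miR-101 0.679% and the miR-29 family 0.591%. Behind miR-30c-5p, miR-30b-5p had 64245 counts and miR-30d-5p 60636. miR-24-3p had 143967 and 143966 counts at its loci, miR-23a-3p 114464 and miR-23b-3p 90968. In the miR-130 and miR-301 family, miR-301a-3p had 76915 counts, miR-130b-3p 58719 and miR-301b-3p 25580. Of the miR-15/16 family, miR-15b-5p had 120986 counts, miR-16-5p 58900 and 56344, miR-15a-5p 32228 and miR-195b 0. The leading forms of the miR-26 and miR-101 list were miR-26a-5p with 66555 and 66544 counts, miR-101a-3p with 11490 and miR-101b-3p with 7773. In the miR-29 family, known for targeting collagens, miR-29b-3p had 44916 and 44869 counts, miR-29a-3p 35713 and miR-29c-3p 14455. miR-34a-5p made up 94.8% of its family, and miR-34c-5p had 8032 counts, miR-34a-3p 3547 and miR-34b-3p 1251. The miR-99/100 and miR-125 list held 0.386%, led by miR-125a-5p with 55743 counts, miR-125b-5p with 12580 and 12572 and miR-99b-5p with 7942, while miR-99a-5p had 437, miR-100-5p 261 and miR-99a-3p 0. The miR-181 family held 0.289%, with miR-181c-5p at 41629, miR-181d-5p at 13162, miR-181c-3p at 8130, miR-181b-5p at 2067 and miR-181a-5p at 533. The miR-148 and miR-152 family held 0.128%, led by miR-148a-3p with 21303 counts, followed by miR-148b-3p with 6503, miR-152-3p with 1458 and miR-148b-5p with 735. miR-221 with miR-222 held 0.0415%, with 5252 counts for miR-221-3p, 3749 for miR-222-3p, 585 for miR-222-5p and 280 for miR-221-5p.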

How the data were processed

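Small RNA of wild-type CJ7 ES cells was read by SOLiD sequencing, and the tools cutadapt and Bowtie and the build mm9 are listed in the submitters' processing notes. Their settings, and how reads with several matches were handled, are not stated in the labels or headers. Per the file headers, the deposited values are a read count for every mature locus of miRBase release 20 and that count expressed as RPM. Dividing the deposited counts by the authors' RPM values gave their denominator, 246316316. The summed microRNA counts equal 9.66% of it, and reads listed at several loci may enter that sum more than once. Only counts were analysed, as CPM of their total. All columns were assigned to groups, and the mutant tables were not used.

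Seeds were read from the listed sequences, which cover all loci, in place of the planned reference table. RefSeq names matched 1662 loci, 1650 with the same sequence. Arms with 1 base name within 130 bp on a strand formed a hairpin. Gaps of up to 10 kb formed clusters of at least 2 hairpins. Shares have Clopper-Pearson intervals and ratios exact conditional binomial intervals. A count of 0 was set at 3 counts for a bound. The hairpin, arm and cluster steps recovered the structure of simulated data with unique names, hairpins of 1 length and 1 strong arm ratio. Repeated names and hairpins longer than the limit were not simulated. Python 3.11.15, pandas 2.3.3, numpy 2.4.6, scipy 1.17.1 and matplotlib 3.10.9 were used.

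Named microRNAs were the 20 most abundant loci, the leading members of the 10 largest seeds and 10 largest clusters, the 5 most abundant hairpins of each arm class, all hairpins of the miR-17, miR-290 and miR-302 lists, and for each list the 4 most abundant loci and, below 20 loci, those at 0. Others were chosen after their values were seen. The members, lists and rules were chosen with earlier results of these data known. No annotation of exons or introns in mm9 was used.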

Additional observations from a re-analysis of the deposited data

How the results depend on the processing

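The number of detected loci fell from 1444 to 940 when at least 10 counts were asked for and to 810 at 1 CPM or more. The top 10 share of 56.8% became 62.1% with 1 value per mature name, 57.9% with arms summed per hairpin and 5.49% of the authors' RPM denominator. The share of the most abundant seed rose from 18.6% to 22.1% with bases 2 to 7 as the seed and to 22.6% with 1 value per name. With 1 value per distinct sequence, chosen after seeing the data, these became 62.7% for the top 10 and 22.8% for the seed. The clustered share of 84.3% was 81.7% with gaps up to 3 kb, 85.7% with gaps up to 50 kb, 73.3% with at least 4 hairpins per cluster and 86.2% without names of several loci. The 134 hairpins with neither arm dominant became 238 with a minimum of 10 counts, 85 with a minimum of 1000 and 69 with a limit of 4 times. The 149 lineage loci at 10 CPM or more, the Sfmbt2 cluster included, became 227 at 1 CPM and 89 with 1 value per name. The miR-290 share was 48.3% with 1 value per name and 3.84% of the RPM denominator. Of 38 alternatives, 16 left the value within counting error or, for counts, within 1.5 times. No paired analysis was possible because the data are 1 column with no replicate values, and for the same reason no replicate could be left out and no other normalization between samples applied. With this depth 1 count equals 0.0420 CPM, so loci at 0 are limited by counting to about 0.126 CPM, and ratios between low forms such as the miR-196a other arms are wide.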

Other observations

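The miRBase number of a microRNA roughly follows the order of its discovery, and abundance was unevenly spread over it. The 727 loci numbered 1 to 499 held 95.7% of counts and 91.7% of them were detected, with a median of 489 counts. The 235 loci numbered 500 to 999 held 3.97%, and the 951 loci numbered 2000 or higher held 0.197%. Of the 395 loci numbered 7000 or higher, 178 (45.1%) were detected and 1 reached 10 CPM. The most abundant microRNAs numbered 2000 or higher were miR-3102-3p with 5030 counts, miR-3535 with 3978 and miR-5099 with 3937, at ranks 238, 273 and 277.

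A number of hairpins had a strongly expressed arm and no count of the other. In 19 of the 388 hairpins with at least 100 counts the lower arm was at 0. miR-135a-5p had 47635 counts at its locus on chromosome 9 and its partner miR-135a-1-3p had 0. miR-350-3p had 6547 counts and miR-149-5p 6263, each with a partner at 0. Their ratios, with the 0 set at 3 counts, were 15878-fold, 2182-fold and 2088-fold toward the abundant arm. For miR-350 and miR-149 these are lower bounds. miR-135a-5p is also listed at a hairpin on chromosome 10, so its ratio is no lower bound for a single hairpin.

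Outside the lineage lists, imprinted microRNAs other than those of Sfmbt2 and Gtl2-Rian-Mirg held 0.260% of counts over 10 loci, all detected. miR-298-5p led them with 39691 counts, miR-335-5p, from the Mest gene, had 9979 and miR-296-3p and miR-296-5p had 5243 and 3032, while miR-675-3p and miR-675-5p, cut from the H19 transcript, had 117 and 23.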
